A study of Homo sapiens with 8 samples.

Results

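The canonical histone genes encode the linker histone H1 and the core histones H2A, H2B, H3 and H4 that package newly copied DNA. Their members were taken as every gene symbol of GENCODE release 29 that begins with HIST1H, HIST2H, HIST3H or HIST4H, 90 symbols in all, of which 71 were protein coding and 19 pseudogenes. Of these, 45 had a transcript in the table, all protein coding, among 19431 genes matched. They comprised 6 H1, 13 H2A, 12 H2B, 8 H3 and 6 H4 genes, or by cluster 33 of the 68 HIST1 symbols, 9 of 17 HIST2, 2 of 4 HIST3 and 1 of 1 HIST4. The other symbols were not analysed here. The cells were LNCaP-FGC, an androgen-dependent human prostate carcinoma line. They were kept for 24 h with DMSO (the solvent), with I-CBP112, which occupies the bromodomain of the acetyltransferases p300 and CBP, with A-485, which blocks their catalytic site, or with I-CBP112 and A-485 together. No dose is given in the sources used here. Each of the 4 groups had 2 libraries, replicates 1 and 2, and all groups came from this 1 line. The labels do not say that the replicates were separate cultures, so p-values measure the spread between these libraries, which may be technical.

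Most canonical histone genes are transcribed as cells copy their DNA, from clusters on chromosomes 6, 1 and 12, under the coactivator NPAT. Their RNAs as a rule have no poly(A) tail. They end just after a short hairpin, the histone stem-loop, which the protein SLBP binds and which governs processing, translation and decay of the RNA. Some histone genes also give longer, polyadenylated RNAs that do not depend on DNA replication.

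The stem-loop was read from the GENCODE release 29 transcript models and is shown for members on which the results turn, because transcripts that end just after it and others were read separately below. Capitals mark the 16 bases of the hairpin, and 5 bases are shown on each side, in the sense strand and with T for U.
HIST2H2BE: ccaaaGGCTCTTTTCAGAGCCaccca
HIST2H2AA3: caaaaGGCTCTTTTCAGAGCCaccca
HIST1H2AC: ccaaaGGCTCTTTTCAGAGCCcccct
HIST1H2BC: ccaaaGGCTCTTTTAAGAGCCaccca
HIST1H2BD: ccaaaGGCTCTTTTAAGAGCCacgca
HIST1H4H: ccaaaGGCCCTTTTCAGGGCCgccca
Searched on the sense strand with the histone stem-loop motif, 22 of the 45 genes held it in a listed transcript. By transcript it was in 22 of their 52, against 70 of all 206694 transcripts of the release, members included (0.0339%). The form in HIST2H2BE was that of 13 genes, the form in HIST1H2BC and HIST1H2BD that of 4 genes and the form in HIST1H4H that of 4 genes. The transcript models differed in where they ended. Of the 52 member transcripts, 9 ended within 60 bases of the stem-loop, 13 ran past it and 30 held none. Many of these 30 models are short, HIST1H2BJ-201 among them with 381 bases, and may stop before the RNA's end. A hairpin missing from a model is therefore not shown to be missing from the RNA. The HIST2H2BE model ran 1729 bases past the hairpin and HIST1H2AC-202 ran 1114 bases past it. HIST1H2AC-203, the other listed transcript of that gene, held no hairpin. The models of HIST2H2AA3 and HIST1H4H ended 35 and 18 bases after the hairpin. Only 19 of the 52 transcripts carried the same version in the table and in the release, so the ends of the others may differ from those the submitters used.

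The promoters of a member that rose and of one that fell with both compounds in the tests below are shown from RefSeq on GRCh38.p14, from 250 bases before the start to 50 after it. Capitals mark the box CCAAT, the TATA box as TATAAA and the octamer as ATTTGCAT, each searched on both strands. No 2 different motifs overlapped in any member promoter searched, while copies of TATAAA on opposite strands overlapped in some, such as that of HIST1H2BK.
HIST2H2BE at chr1:149886633-149886932, minus strand: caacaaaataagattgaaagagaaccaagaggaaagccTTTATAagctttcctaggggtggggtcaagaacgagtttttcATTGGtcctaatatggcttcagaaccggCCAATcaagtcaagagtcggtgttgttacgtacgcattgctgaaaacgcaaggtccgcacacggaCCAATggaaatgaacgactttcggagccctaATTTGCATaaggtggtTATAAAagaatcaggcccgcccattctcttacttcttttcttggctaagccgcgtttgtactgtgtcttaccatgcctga
HIST1H1E at chr6:26156079-26156378, plus strand: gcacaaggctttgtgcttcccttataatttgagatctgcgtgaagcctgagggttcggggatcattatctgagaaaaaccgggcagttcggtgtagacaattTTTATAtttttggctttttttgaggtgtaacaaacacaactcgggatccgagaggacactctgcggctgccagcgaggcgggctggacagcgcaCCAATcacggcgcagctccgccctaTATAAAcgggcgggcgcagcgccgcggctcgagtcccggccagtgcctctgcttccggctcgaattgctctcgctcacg
A promoter was found for 38 of the 45 members. CCAAT was present in 34 of these (89.5%) against 34.6% of all 35116 promoters of the same length, TATAAA in 28 (73.7%) against 11.5%, and ATTTGCAT in 15 (39.5%) against 1.77%. Where a gene had more than 1 promoter listed, the first was counted. By type, the octamer was in 9 of 12 H2A and 5 of 8 H2B promoters, in 1 of 7 H3 promoters and in no H1 (0 of 6) or H4 (0 of 5) promoter. The H3 hit was HIST1H3D, whose counted promoter is the same stretch as that of the H2A gene HIST1H2AD, so the counts include it for both genes. The other promoter listed for HIST1H3D holds TATAAA and no octamer. CCAAT was in all H1, H2A, H2B and H3 promoters searched and in 1 of 5 H4 promoters. HIST2H2BE lies head to head with HIST2H2AC, which starts 236 bases away on the opposite strand. HIST1H2BJ with HIST1H2AG and HIST1H2BL with HIST1H2AI formed divergent pairs whose starts lie 248 and 244 bases apart.

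The replicates did not stand on the same footing. The FPKM (fragments per kilobase of transcript per 1e+06 fragments) of a library came to 696917 to 808443 in replicate 1 and to 181486 to 408673 in replicate 2, and an estimated 15.8 to 31.15 M fragments (M for 1e+06) had served to normalize each. Libraries were therefore scaled to each other, and levels below are scaled FPKM. All 9 luminal prostate markers reached 1, their summed level lying between 4844 and 5854 with DMSO, 3380 and 3600 with I-CBP112, 2147 and 2537 with A-485, and 1821 and 2468 with both. Of the 9, 6 fell with A-485, where 4.44% of all genes passed in either direction (limma). With a replicate block, described below, 7 fell, where 9.12% of all genes fell. With the combination 6 fell in either fit, where 7.1% of all genes fell (limma), and 12% with the block. Of the lists for other cell types, 2 of 3 basal, 1 of 4 fibroblast and 1 of 4 leukocyte markers reached 1 in a library. The basal sum was 1.05 to 7.26 with DMSO, 0.754 to 15.5 with I-CBP112, 0 to 0.297 with A-485 and 0.185 to 1.91 with both, with TP63 at 0 throughout. KRT5, a basal keratin, was at 6.69 in DMSO replicate 2 and 14.1 in I-CBP112 replicate 2, and at 1.67 or less elsewhere. The fibroblast sum was 3.51 to 3.73 with DMSO, 6.11 to 6.17 with I-CBP112, 9.74 to 10.4 with A-485 and 9.63 to 11.9 with both. COL1A1, a collagen gene, rose with A-485 and with the combination (limma), and COL1A2 was at 0.00782 or less. The leukocyte sum was 1.44 to 1.89 with DMSO, 2.03 to 2.63 with I-CBP112, 2.12 to 5.76 with A-485 and 3.98 to 5.93 with both, with PTPRC and CD3E at 0. Of that list CD68, a macrophage gene, rose with the combination when replicates were compared within themselves (limma with a replicate block). The part of these markers in the histone values was not tested. In these bulk samples fewer cells in S phase and less histone RNA per cell cannot be told apart.

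Of the 36 members that reached a scaled level of 1 in at least 2 libraries, 33 were higher in replicate 2 after DMSO, 34 after I-CBP112, 33 after A-485 and 29 after both. The median log2 difference, replicate 2 minus replicate 1, was 2.02 after DMSO, 1.29 after I-CBP112, 1.28 after A-485 and 0.36 after both, against medians between -0.03 and 0.00 over all 11874 genes tested. It was smaller in short genes outside the set. For 150 other genes under 500 bases the median was 0.0035 after DMSO, 0.32 after I-CBP112, 0.069 after A-485 and 0.21 after both. For 16 members of that length it was 2.63, 1.41, 1.47 and 0.44. The 8 members listed as giving polyadenylated RNAs had a median of 0.74 with DMSO and the other 28 a median of 2.16. The labels do not say how RNA was selected in either replicate, and the part of library preparation in these differences was not tested.

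**Figure D1:**
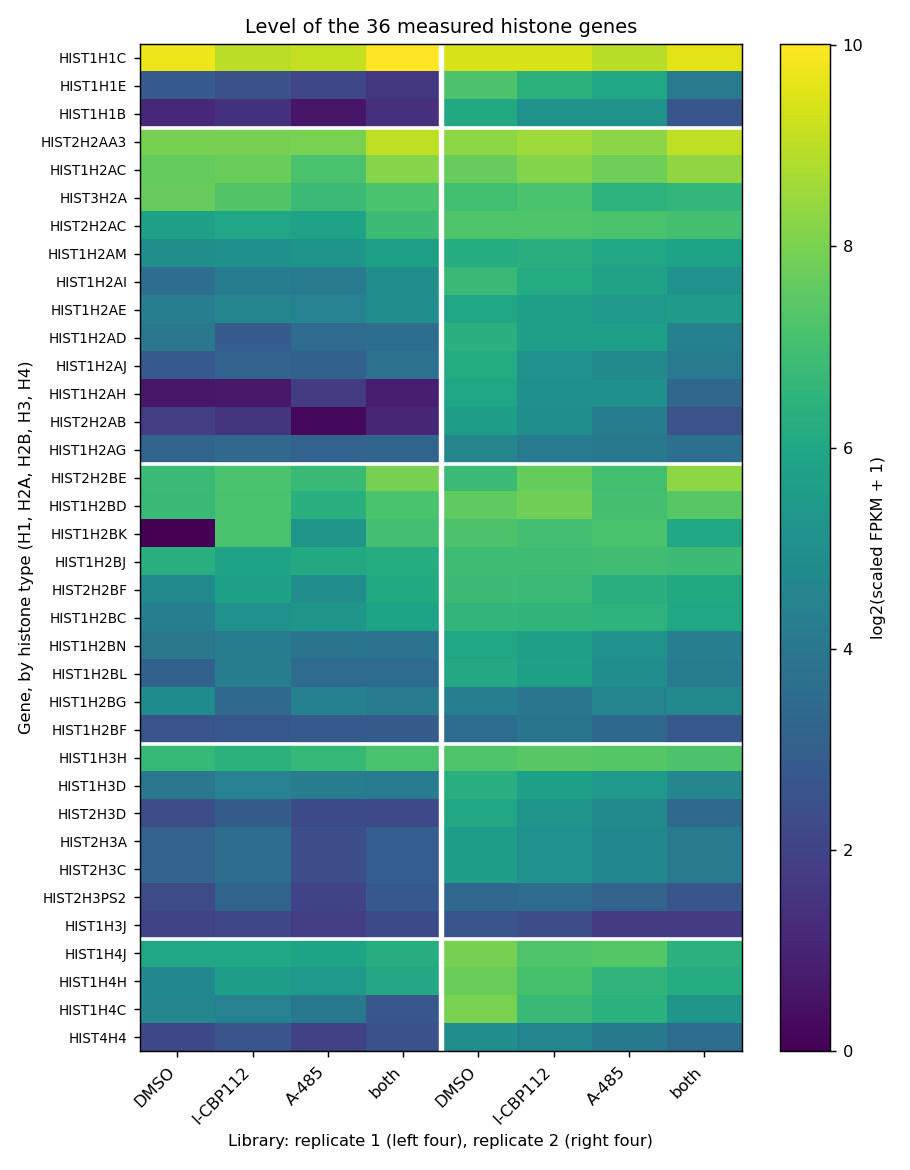
Level of each of the 36 measured histone genes in the 8 libraries, as log2(scaled FPKM + 1) on a colour scale, with genes in rows by histone type and replicate 1 to the left of the white bar. Most rows are darker on the left: 33 of 36 members were lower in replicate 1 than in replicate 2 with DMSO.

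The 9 members below that level were HIST1H1T, HIST1H1D, HIST1H4F, HIST1H2BI and HIST1H1A, which were at 0 or under 1 in each library, and HIST1H2AA, HIST1H2BA, HIST1H4B and HIST3H3, which were listed at 0 in all 8. HIST1H1T, HIST1H2AA and HIST1H2BA are testis histones. The 36 measured members were 3 H1, 12 H2A, 10 H2B, 7 H3 and 4 H4 genes.

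The summed level of all members was 2323 and 4283 scaled FPKM in DMSO in replicates 1 and 2, 2181 and 3870 with I-CBP112, 1897 and 3060 with A-485, and 3351 and 3364 with both. H4 summed to 114 and 747 with DMSO, 135 and 417 with I-CBP112, 116 and 350 with A-485, and 151 and 204 with both. The H4 sum thus lay higher with both compounds than with DMSO in replicate 1 and lower in replicate 2. H3 showed the same pattern, at 145 and 399 with DMSO and 184 and 220 with both. H2A summed to 792 and 1313 with DMSO and to 1218 and 1284 with both, and H2B to 393 and 934 with DMSO and to 763 and 858 with both. The first H2B value includes HIST1H2BK listed at 0.000303. H1 summed to 878 and 890 with DMSO and to 1035 and 796 with both. Most of it was HIST1H1C, at 870 and 676 with DMSO and 1031 and 774 with both. By cluster, the HIST2 genes made up 20.0% and 21.2% of all histone FPKM with DMSO, 24.9% and 25.4% with I-CBP112, 24.5% and 24.7% with A-485, and 29.3% and 32.4% with both. In these shares the 2 libraries with both compounds were the highest of the 8 and the DMSO libraries the lowest, with no overlap between the groups. No test was made on sums.

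**Figure D2:**
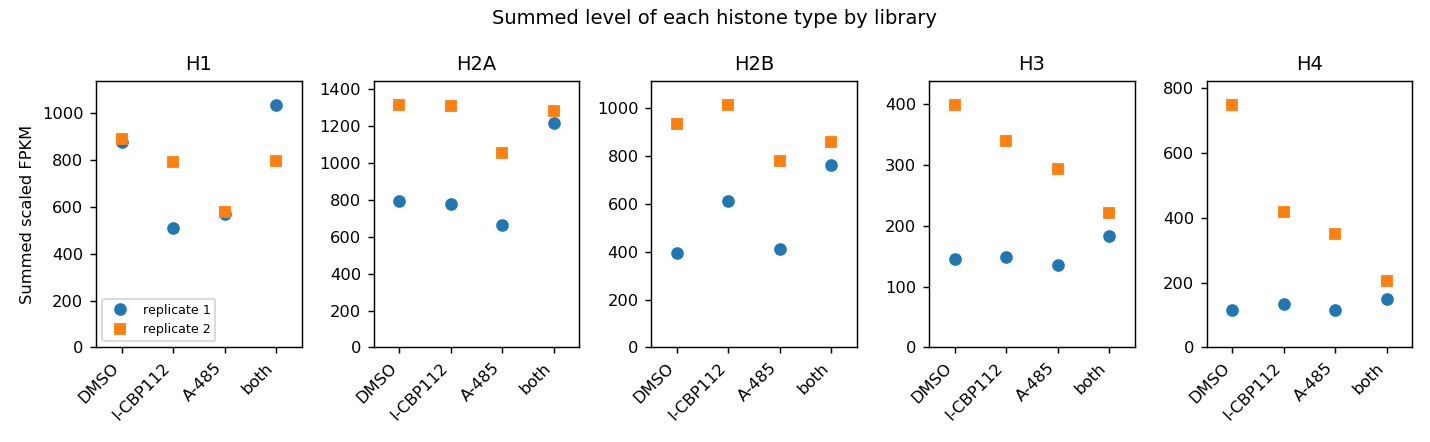
Summed scaled FPKM of each histone type in each library, by treatment, with circles for replicate 1 and squares for replicate 2 and each axis from 0. The H4 squares descend from 747 with DMSO to 204 with both compounds, while the circles stay between 114 and 151.

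With both compounds against DMSO, HIST2H2BE rose and no other member passed the limma test on group means. HIST2H2BE encodes an H2B and is known for a polyadenylated RNA in differentiated cells. Its level was 111.8 and 112.6 scaled FPKM in DMSO, 146 and 201 with I-CBP112, 111 and 126 with A-485, and 249 and 314 with both. The libraries with both compounds lay above the other 6, those with I-CBP112 came next, and the A-485 values spanned those of DMSO. The log2 change with both compounds was 1.31 ± 0.22 (SE, n = 2 per group; limma, adjusted p = 0.0113). It was the 1 of 36 members that passed, where 10.6% of all genes did (3.49% higher and 7.1% lower). Leaving out replicate 2 with both compounds ended the call (limma, adjusted p = 0.0921). It held without each of the other 7 libraries, and the estimate ranged from 1.14 to 1.48 over the 8 such fits. The value rested on an estimated 862 to 7736 fragments per library.

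The labels state no pairing, but libraries share replicate numbers, and column names share a prefix within each replicate whose meaning is not given. On this assumed pairing the test was also made with the replicate as a block, which compares treatments within each replicate. In that fit 3 members rose and 2 fell with both compounds, where 20% of all genes passed (7.99% higher and 12% lower). The share of members, 5 of 36, was below that of all genes. That order did not hold in every blocked fit that left out a library. HIST2H2BE had adjusted p = 0.00268 and kept the call without each library in turn.

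HIST2H2AA3, an H2A gene of the HIST2 cluster, was at 247 and 315 scaled FPKM in DMSO, 246 and 372 with I-CBP112, 255 and 311 with A-485, and 526 and 529 with both. Both libraries with the combination were above all others, and the remaining groups overlapped. Its log2 change was 0.92, with an SE of 0.25 and adjusted p = 0.0559 without the block and an SE of 0.16 and adjusted p = 0.0120 with it (limma). The blocked call was lost without replicate 1 of the combination (limma, adjusted p = 0.121). The gene has a near-identical copy, HIST2H2AA4, so how reads were divided between them is uncertain.

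HIST1H2AC, an H2A gene that also gives polyadenylated RNA, was at 197 and 203 scaled FPKM in DMSO, 214 and 285 with I-CBP112, 141 and 222 with A-485, and 288 and 329 with both. The combination lay above DMSO without overlap, by a narrow margin above I-CBP112. Its log2 change was 0.62 ± 0.17 with the block (limma, adjusted p = 0.0433; 0.164 without it), and the call was lost in 7 of the 8 fits that left out a library.

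HIST1H4C and HIST1H1E, named after their values were seen, were the 2 members that fell with both compounds in the blocked fit. HIST1H4C encodes an H4. It was at 23.8 and 255 scaled FPKM in DMSO, 20.6 and 109 with I-CBP112, 15.6 and 82.8 with A-485, and 5.50 and 37.9 with both. In each replicate the order was DMSO, I-CBP112, A-485, both, from high to low, but the groups overlapped because replicate 2 exceeded replicate 1 throughout. The log2 change was -1.93 within replicate 1 and -2.72 within replicate 2. The mean was -2.32 ± 0.25 with the block (limma, adjusted p = 0.00264) and had adjusted p = 0.383 without it. The blocked call held without each library in turn, the estimate ranging from -2.81 to -1.86. The lowest value, with both compounds in replicate 1, rested on an estimated 34.0 fragments.

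HIST1H1E, a linker histone, was at 6.54 and 147 scaled FPKM in DMSO, 4.56 and 86.0 with I-CBP112, 3.38 and 63.3 with A-485, and 2.10 and 17.1 with both. Its order was the same as that of HIST1H4C in each replicate. The log2 change with both compounds was -2.16 ± 0.38 with the block (limma, adjusted p = 0.0126; 0.580 without it). Without DMSO replicate 2 it no longer passed (limma, adjusted p = 0.0523). In replicate 1 its values rested on an estimated 22.4 to 68.2 fragments.

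**Figure D3:**
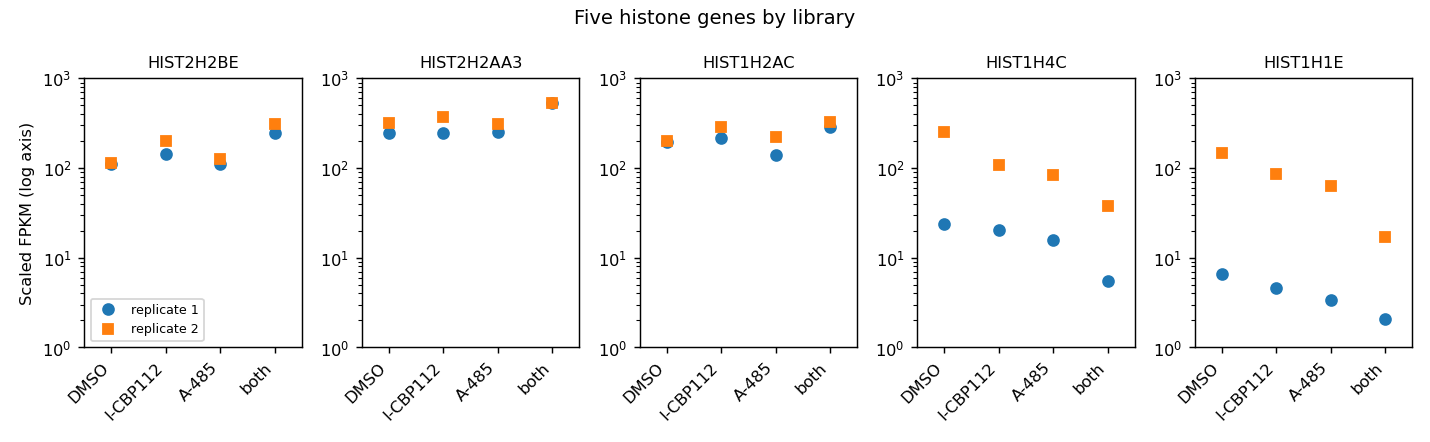
Scaled FPKM, on a log axis, of the 5 histone genes that passed a test with both compounds against DMSO, in each library by treatment, with circles for replicate 1 and squares for replicate 2. HIST2H2BE, HIST2H2AA3 and HIST1H2AC have their highest values with both compounds, and HIST1H4C and HIST1H1E step down in each replicate from DMSO to both.

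The other H1 genes stood at different heights. HIST1H1C, the main H1 of these libraries and a gene with polyadenylated RNA, was at 870 and 676 scaled FPKM in DMSO, 503 and 671 with I-CBP112, 566 and 483 with A-485, and 1031 and 774 with both. The I-CBP112 and the A-485 libraries lay below DMSO without overlap, those with I-CBP112 by a narrow margin, and those with both compounds overlapped with DMSO. Its log2 change was 0.22 ± 0.25 with both (limma, adjusted p = 0.611) and -0.55 ± 0.25 with A-485 (limma, adjusted p = 0.216). HIST1H1B, named after its values were seen, was at 1.18 and 66.4 with DMSO and 1.62 and 5.38 with both. Its log2 change was -3.40 within replicate 2 and 0.26 within replicate 1, where an estimated 8.37 to 15.6 fragments stood behind each value.

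Among the H2A genes, HIST3H2A was at 204 and 126 scaled FPKM in DMSO, 155 and 143 with I-CBP112, 111 and 87.2 with A-485, and 144 and 99.0 with both. Both A-485 values were below both DMSO values, and the combination overlapped with DMSO. HIST2H2AC, the divergent partner of HIST2H2BE, was at 51.6 and 150 with DMSO, 59.998 and 153 with I-CBP112, 55.0 and 139 with A-485, and 116 and 130 with both. Its log2 change with both was 0.47 ± 0.64 (limma, adjusted p = 0.673) where that of HIST2H2BE was 1.31. It was higher with both than with DMSO in replicate 1 and lower in replicate 2.

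Among the H2B genes, HIST1H2BD was at 105 and 188 scaled FPKM in DMSO, 140 and 228.2 with I-CBP112, 80.8 and 133 with A-485, and 144 and 170 with both. HIST1H2BJ was at 75.9 and 120 with DMSO, 54.3 and 120 with I-CBP112, 67.1 and 122 with A-485, and 73.3 and 114 with both. The groups overlapped for both genes. HIST1H2BK was listed at 0.000303 with DMSO in replicate 1 and at 149 in replicate 2, at 139 and 129 with I-CBP112, 37.998 and 139 with A-485, and 129 and 63.5 with both. A value near 0 in a gene at 37.998 or more in the other 7 libraries can be a failed estimate. Fold changes of HIST1H2BK against DMSO are therefore not read as results, although the gene stays in the member counts and medians.

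For H3, HIST1H3H was at 103 and 150 scaled FPKM in DMSO, 86.0 and 170 with I-CBP112, 101 and 166 with A-485, and 140 and 147 with both, and all groups overlapped. HIST2H3A and HIST2H3C, near-identical copies, had the same value in 6 of 8 libraries to the digits given and cannot be counted as separate measurements. The member counts and medians nonetheless hold each of them, and both were lower than with DMSO in each replicate with A-485 and with the combination. For H4, HIST1H4J was at 62.0 and 247 with DMSO, 61.0 and 151 with I-CBP112, 55.1 and 163 with A-485, and 75.1 and 83.6 with both. HIST1H4H was at 24.8 and 217 with DMSO, 47.6 and 135 with I-CBP112, 42.1 and 89.6 with A-485, and 65.7 and 71.9 with both. Both H4 genes were higher with both compounds than with DMSO in replicate 1 and lower in replicate 2, HIST1H4H by log2 changes of 1.37 and -1.58. HIST1H4C differed from them in being lower in each replicate, although the difference between these genes was not tested.

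Over the 36 members the median log2 change with both compounds was -0.28, beside 0.04 over all genes, and 24 members were below 0. This median was 0.47 without DMSO replicate 2 and -0.96 without DMSO replicate 1. Within replicate 1 the median was 0.28 and 11 members were lower than with DMSO. Within replicate 2 it was -1.06 and 31 were lower. In both replicates 10 members were lower, where 33.7% of all genes were, and 4 were higher, where 37.5% of all genes were. The 4 were HIST1H1C, HIST1H2AC, HIST2H2AA3 and HIST2H2BE. The remaining 22 differed in sign between the replicates.

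**Figure D4:**
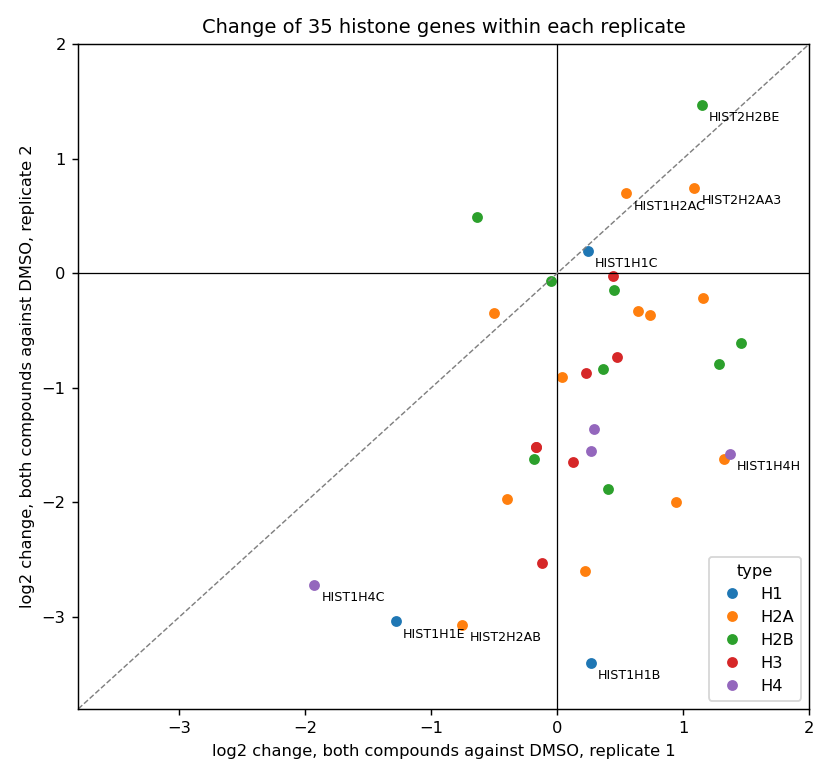
Each point is a histone gene, with its log2 change with both compounds against DMSO in replicate 1 on the horizontal axis and in replicate 2 on the vertical axis, coloured by type; HIST1H2BK is left out for its near-0 value. Most points lie below the dashed line of equal change, 4 genes lie in the upper right, and HIST1H4C and HIST1H1E lie at the lower left.

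With A-485 alone no member passed the limma test against DMSO (1 of 36 at p under 0.05; 4.44% of all genes passed). The median log2 change of the members was -0.30, beside 0.01 over all genes, and 29 of 36 were below 0. The median was 0.57 without DMSO replicate 2, 0.33 without A-485 replicate 1, -1.14 without DMSO replicate 1 and -0.82 without A-485 replicate 2. Within replicate 1 it was -0.13 and within replicate 2 -0.57. In both replicates 17 were lower, where 37.4% of all genes were, and none was higher, where 37.7% of all genes were. With the block 2 members fell, where 13.7% of all genes passed and 9.12% fell. These were HIST3H2A, with a log2 change of -0.70 ± 0.16 (limma, adjusted p = 0.0372; 0.175 without the block), and HIST1H4C, with -1.09 ± 0.25 (limma, adjusted p = 0.0383; 0.696 without the block). Both calls were lost when either A-485 library or either library with both compounds was left out, and that of HIST3H2A also without DMSO replicate 1.

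With I-CBP112 alone no member passed (limma, 2 of 36 at p under 0.05, and 3 with the block; 0% of all genes passed in either fit). The members' median log2 change was -0.04, beside 0.01 over all genes. Within replicate 1 it was 0.22 and within replicate 2 -0.27, and 7 members were lower and 7 higher in both replicates, where 27.5% and 27.6% of all genes were. HIST2H2BE had a log2 change of 0.60 ± 0.22 (limma, adjusted p = 0.392; 0.149 with the block).

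The combination was also set against each compound. Against I-CBP112 no member passed (limma, 4 of 36 at p under 0.05; 2.23% of all genes passed). With the block HIST2H2BE (log2 change 0.71 ± 0.14, adjusted p = 0.0412) and HIST2H2AA3 (0.80 ± 0.16, adjusted p = 0.0392) rose and HIST1H4C fell (-1.62 ± 0.25, adjusted p = 0.0191; limma), where 5.79% of all genes passed (1.47% higher and 4.31% lower). These calls were lost in 6, 6 and 4 of the 8 fits that left out a library. Against A-485 no member passed (limma, 4 of 36 at p under 0.05; 0.817% of all genes passed), and HIST2H2BE had a log2 change of 1.23 ± 0.22 (adjusted p = 0.0622). With the block it rose (limma, adjusted p = 0.0124), where 1.34% of all genes passed and 0.286% rose, and lost the call in 4 of the 8 such fits. These comparisons share their libraries with those against DMSO.

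For the interaction, which asks how far the combination departs from the added effects of the single compounds on the log2 scale, no member passed (limma, 2 of 36 at p under 0.05, and 4 with the block; 0% of all genes passed, and 0.0842% with the block). HIST1H1C had an interaction of 1.17 ± 0.36 on the log2 scale (limma, adjusted p = 0.470; 0.219 with the block), HIST2H2AA3 of 0.79 ± 0.36 (adjusted p = 0.559) and HIST2H2BE of 0.63 ± 0.32 (adjusted p = 0.588). That the combination exceeded the sum of the single compounds was therefore not shown for any member.

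For the H2B genes HIST1H2BC, named after its values were seen, and HIST1H2BD, transcripts with and without a stem-loop were listed separately. HIST1H2BC-201, a model of 659 bases without a stem-loop, was at 16.4 and 18.6 scaled FPKM in DMSO, 29.3 and 27.5 with I-CBP112, 35.8 and 35.1 with A-485, and 53.7 and 50.4 with both. The 4 groups did not overlap and the replicates lay close together. Tested over 31838 transcripts, it rose with both compounds by 1.52 ± 0.16 on the log2 scale (limma, adjusted p = 0.0351; 0.0371 with the block), 1 of 43 member transcripts to pass where 0.022% of all transcripts rose (0.0314% with the block).

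HIST1H2BC-202, a model of 571 bases that runs 116 bases past the stem-loop shown above, was at 2.82 and 77.7 scaled FPKM in DMSO, 3.15 and 64.2 with I-CBP112, 2.53 and 51.5 with A-485, and 0.809 and 12.4 with both. Replicate 2 exceeded replicate 1 in every group, and in both replicates the level with both compounds was the lowest. Its log2 change was -1.81 ± 2.20 (limma, adjusted p = 0.815; 0.155 with the block). The summed gene had a log2 change of 0.42 ± 0.80 (limma, adjusted p = 0.768). HIST1H2BD-201, of 789 bases and without a stem-loop, was at 35.4 and 23.0 with DMSO and 48.2 and 48.5 with both (0.74 ± 0.23; limma, adjusted p = 0.324). HIST1H2BD-202, which ended 39 bases after its stem-loop, was at 69.6 and 165 with DMSO and 95.9 and 122 with both (0.01 ± 0.56). The division of reads between transcripts of a gene was the submitters' estimate, and leaving out libraries was not tried at this level.

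**Figure D5:**
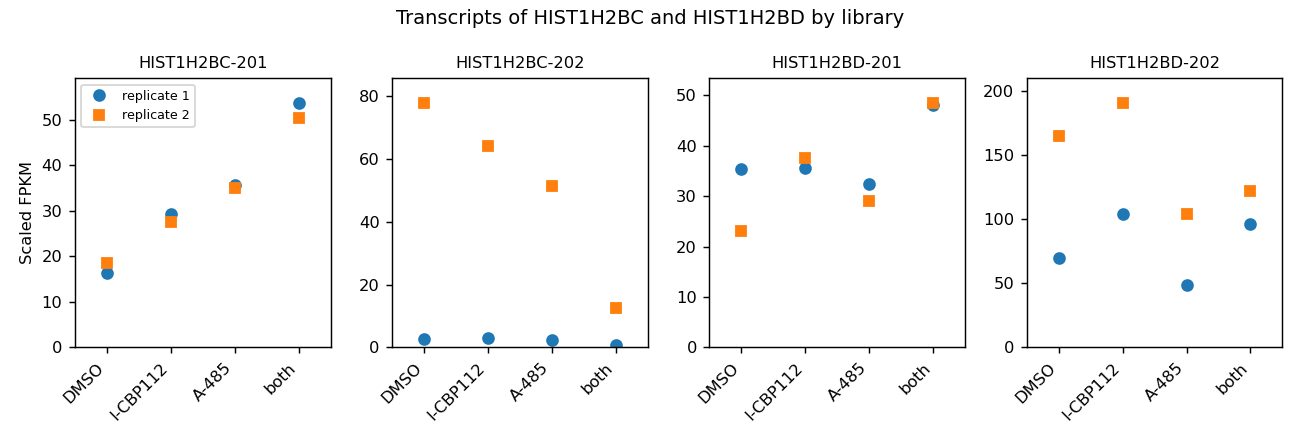
Scaled FPKM of the transcripts of HIST1H2BC and HIST1H2BD in each library by treatment, with circles for replicate 1 and squares for replicate 2 and each axis from 0. HIST1H2BC-201, without a stem-loop, steps up from 16.4 and 18.6 with DMSO to 53.7 and 50.4 with both compounds, while the squares of HIST1H2BC-202 step down from 77.7 to 12.4.

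The factors that make and handle histone RNA were read from lists of their genes. Of 8 measured genes of histone transcription, CDK2 alone fell with both compounds, by 1.01 ± 0.18 on the log2 scale (limma, adjusted p = 0.0136). That is 1 of 8, where 7.1% of all genes fell (12% with the block). CDK2 is the kinase that activates NPAT. NPAT was at 1.27 and 4.75 scaled FPKM in DMSO and 3.10 and 3.46 with both (0.24 ± 0.43; limma, adjusted p = 0.748). Of 13 measured genes of histone RNA processing and turnover none passed with both compounds, where 10.6% of all genes did, and 1 fell with the block, where 12% of all genes fell. SLBP was at 48.5 and 56.9 with DMSO and 54.0 and 47.9 with both (-0.05 ± 0.21; limma, adjusted p = 0.908).

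Of 20 histone chaperones and assembly factors 4 fell with both compounds and none rose, where 7.1% of all genes fell and 3.49% rose. With the block 6 fell, where 12% of all genes did. The 4 were CHAF1A, of the CAF-1 complex (-1.33 ± 0.17 on the log2 scale; limma, adjusted p = 0.00378), ASF1B, an H3-H4 chaperone (-1.59 ± 0.26; adjusted p = 0.00986), the importin IPO4 (-0.91 ± 0.20; adjusted p = 0.0295) and the CENPA chaperone HJURP (-0.78 ± 0.18; adjusted p = 0.0336). Of the 12 replacement and variant histones, which are made outside S phase as well, none passed without the block, where 10.6% of all genes did. H2AFZ was the 1 that passed in the blocked fit, where 20% of all genes did. It fell by 0.83 ± 0.13 on the log2 scale (limma, adjusted p = 0.00871; 0.0815 without the block). Of 19 measured S phase genes 15 fell with both compounds (17 with the block), where 7.1% of all genes fell (12% with the block), and their median log2 change was -1.48. With A-485 2 fell, where 4.44% of all genes passed in either direction, and 9 fell with the block, where 9.12% of all genes fell, and with I-CBP112 none did, in either fit. Their part in the histone values was not tested.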

How the data were processed

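RNA-seq of 8 libraries was deposited as 1 table of 81591 transcripts. Per the submitters' processing notes, STAR, Cufflinks, DESeq and DESeq2 and the builds hg19 and GRCh37 were used, with roles and versions not given in the sources used here. Deposited values are FPKM, as their step with transcript length showed: 75.3 to 81.9% of low values of long transcripts were whole fragments within 0.1, so no count test was used. The design had named a count model for counts and limma otherwise. RNA was extracted with Trizol and DNase and libraries were made with an NEB kit, per the labels' protocols.

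Transcripts were named by GENCODE release 29 on GRCh38 (74209 matched), FPKM were summed per gene, and libraries were scaled to 1e+06 and by a trimmed mean of log ratios (30% of ratios and 5% of levels trimmed). The 11874 genes at 1 or more in at least 2 libraries were tested with limma 3.58.1 (R 4.3.3; trended, robust, all 8 libraries) on log2(scaled FPKM + 1), with Benjamini-Hochberg adjustment at 0.05; fold changes of low genes are understated on that scale. The script was tested on simulated data. Single transcripts were tested likewise.

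Replicate numbers come from the titles. Between each pair of groups the deviations of same-numbered libraries correlated at 0.145 to 0.425 over all genes, so blocked values stand beside each member call they change. Genes named by rule are the 12 highest members, called members, NPAT, SLBP and at most 4 called genes per list. Other members were named after their values or sequences were seen, and not all are marked so. Members and lists were chosen with earlier results of these data known. Alternatives were another scaling, none, a pseudocount of 0.1, no filter, protein-coding transcripts, the block and leaving out each library; the blocked fits without a library, within-replicate changes and transcript tests were added after seeing the data. FPKM intervals cover no counting error, and strand use in counting is not given in the sources used here.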

Additional observations from a re-analysis of the deposited data

How the results depend on the processing

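With the replicate block the members called were 2 with A-485 against DMSO, 5 with both against DMSO, 3 with both against I-CBP112 and 1 with both against A-485; the block changed no call with I-CBP112 or in the interaction. On the values as deposited, none (0) was called with both against DMSO, all genes shifted there by a median of 0.61 on the log2 scale, and the log2 change turned to 0.32 for HIST3H2A, 0.11 for HIST1H4J, 0.68 for HIST1H2BJ and 0.64 for HIST1H4H. The mean log2 ratio of summed FPKM, both to DMSO, turned from -0.07 to 0.68 for HIST1 and from -0.43 to 0.33 for HIST3, and moved to 0.80 for H1, 1.05 for H2A, 1.43 for HIST2 and 0.85 for all members. Median-of-ratios scaling, a pseudocount of 0.1, no filter, and protein-coding transcripts alone moved no count of members by over 1.5 times.

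Leaving out 1 library gave 0 to 1 members called with A-485 against DMSO and 0 to 2 with both against DMSO, without the block. With the replicate block it gave 0 to 1 with I-CBP112, 0 to 3 with A-485 and 4 to 10 with both against DMSO (8 without its replicate 1), 0 to 5 with both against I-CBP112, 0 to 4 with both against A-485 and 0 to 1 in the interaction. With both compounds against DMSO the log2 change then changed sign, without and with the block, for HIST1H2BD (-0.28 to 0.56 and -0.10 to 0.41, and -0.0016 without DMSO replicate 1), HIST1H3H (-0.072 to 0.46 and -0.13 to 0.55), HIST1H4J (-1.64 to 0.33 and -1.37 to 0.087), HIST2H2AC (-0.31 to 1.22 and -0.15 to 1.09), HIST1H2BK (-0.72 to 6.53 and -0.61 to 6.41), HIST1H2BJ (-0.40 to 0.26 and -0.18 to 0.064, and 0.036 without DMSO replicate 1) and HIST1H4H (-1.65 to 1.42 and -1.21 to 0.97, and 0.77 without replicate 2 of both). For HIST1H2BK it was the DMSO library near 0 that decided the sign. Without DMSO replicate 2 this gene was also called with A-485 against DMSO, without and with the block. It was likewise among the members called there with both compounds. These calls rest on the value near 0 and are not read as results. A group left with 1 library was assumed to vary like the others. The cause of these shifts was not tested. Members at few fragments in replicate 1, such as HIST1H1B, HIST2H2AB and HIST1H2AH, have uncertain changes there.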

Other observations

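The values of other H2B transcripts, picked after their values were seen, were as follows. HIST2H2BF-204, an H2B model of 999 bases without a stem-loop, was at 1.06 and 0.605 scaled FPKM in DMSO, 2.16 and 0.988 with I-CBP112, 1.80 and 0.985 with A-485, and 7.57 and 6.33 with both. Both libraries with the combination lay above the other 6. Its log2 change was 2.12 ± 0.42 (limma, adjusted p = 0.152; 0.104 with the replicate block), and at these levels the pseudocount understates it. HIST2H2BF-201, which runs 1479 bases past the stem-loop, was at 25.5 and 114 with DMSO and 58.5 and 59.6 with both (0.12 ± 0.82). HIST1H2BJ-201 was at 16.1 and 77.6 with DMSO and 27.3 and 37.9 with both, where HIST1H2BJ-202 was at 44.6 and 37.8 and then at 34.0 and 63.0. HIST1H2BJ-203, the third model of that gene, was at 15.2 and 4.43 with DMSO and 12.0 and 13.4 with both. None of these 3 models holds a stem-loop, and HIST1H2BJ-201, of 381 bases, may stop before the RNA's end. HIST1H2BN-201, which ends 5 bases after the stem-loop, was at 11.2 and 54.5 with DMSO and 10.3 and 14.7 with both (-0.97 ± 0.91). HIST1H2BN-203, of 4137 bases and without a stem-loop, was at 3.65 and 4.90 with DMSO and 2.68 and 3.90 with both (-0.30 ± 0.34). For the H2A gene HIST1H2AC neither listed transcript passed with both compounds. HIST1H2AC-202 changed by 0.81 ± 0.40 (limma, adjusted p = 0.538) and HIST1H2AC-203 by 0.53 ± 0.31 (limma, adjusted p = 0.624).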
